A study of Mus musculus with 14 samples.

Results

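Amino acid carbon is burned in muscle by a set of mitochondrial enzymes and some cytosolic ones, such as those of Got1 and Gpt. They were followed here gene by gene, in quadriceps of mice with and without the histone deacetylase HDAC3. The set holds 33 genes, taken by gene symbol from a list, of 24354 genes in the expression table, and all 33 were found. They fall into leucine breakdown (5 genes), valine and isoleucine breakdown (7), propionate disposal (4), the proline and ornithine branch (3), lysine breakdown (3), transamination with glutamate dehydrogenase (5) and 6 genes of other amino acids. This list and the comparison lists below were chosen with earlier results of these data known. Their shares beside those of all genes are therefore description only and no test of the lists. The RNA-seq comparison has 3 HDAC3 knockout libraries and 3 HDAC3 wild-type libraries, all from resting male mice aged 4 months on normal chow, of a strain labelled C57B/6, sampled at ZT10. ZT10 lies 10 h after lights on. Neither the cell type in which HDAC3 was deleted nor the means of deletion is stated in the labels used here. Nothing says that the libraries came from separate animals, so p-values measure the spread between these libraries, which may be technical.

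Muscle is the main site where branched-chain amino acids are first transaminated. Their ketoacids are decarboxylated and then oxidised in parallel mitochondrial routes: leucine ends in acetoacetate and acetyl-CoA, while valine and isoleucine feed propionyl-CoA, which is carboxylated and isomerised to succinyl-CoA for the citric acid cycle. Ornithine and proline meet at pyrroline-5-carboxylate, which is oxidised to glutamate, and the aspartate and alanine aminotransferases move the nitrogen between amino acids and ketoacids. HDAC3 is the enzymatic subunit of the NCoR/SMRT corepressor complexes, and the series addresses its role in the daily control of muscle fuel use.

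Levels are FPKM, fragment counts scaled for gene length and library size, and so can be compared between genes. Differences are on the log2(FPKM + 1) scale, knockout minus wild type, with the SE and the Benjamini-Hochberg adjusted p of limma fitted on the 10501 genes with a mean of at least 1 FPKM over the 6 libraries; a gene rose or fell when that p was under 0.05. Hdac3 itself was at 5.51, 6.29 and 8.16 FPKM in knockout libraries, against 33.3, 31.0 and 23.7 FPKM in wild-type libraries, and fell (log2 difference -1.99 ± 0.17, limma adjusted p = 0.00632). Total FPKM was 464777 to 495099 in knockout libraries and 454359 to 484510 in wild-type libraries. Read numbers are not given. Taken from the most frequent ratio of values under 0.3 FPKM between libraries, where a value can be 1 fragment, relative depth was 0.660, 0.829 and 0.674 in knockout replicates 1, 2 and 3, and 0.829 and 1.02 in wild-type replicates 2 and 3, all relative to wild-type replicate 1. A list of 5 muscle fibre genes (Ckm, Acta1, Tnnt3, Myh4 and Mylpf) summed to between 48203 and 59899.5 FPKM in knockout libraries and between 50098 and 59189 FPKM in wild-type libraries, and hepatocyte genes (Alb, Apoa1 and Cps1) to at most 0.130 and 0.103 FPKM, with Apoa1 and Cps1 listed at 0 throughout.

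Of the 33 genes, 6 averaged 100 FPKM or more over the 6 libraries, 16 lay between 10 and 100, 7 between 1 and 10, and 4 under 1. Got1 was highest at 314 FPKM, followed by Oat (184), Got2 (173), Oxct1 (166), Gpt2 (120.3) and Acat1 (100.1). Of the 32 pairs of neighbours in this order, 30 overlapped between libraries. The exceptions were Acad8 above Gpt and Gpt above Aldh7a1, where every library of the more abundant gene exceeded every library of the next.

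**Figure D1:**
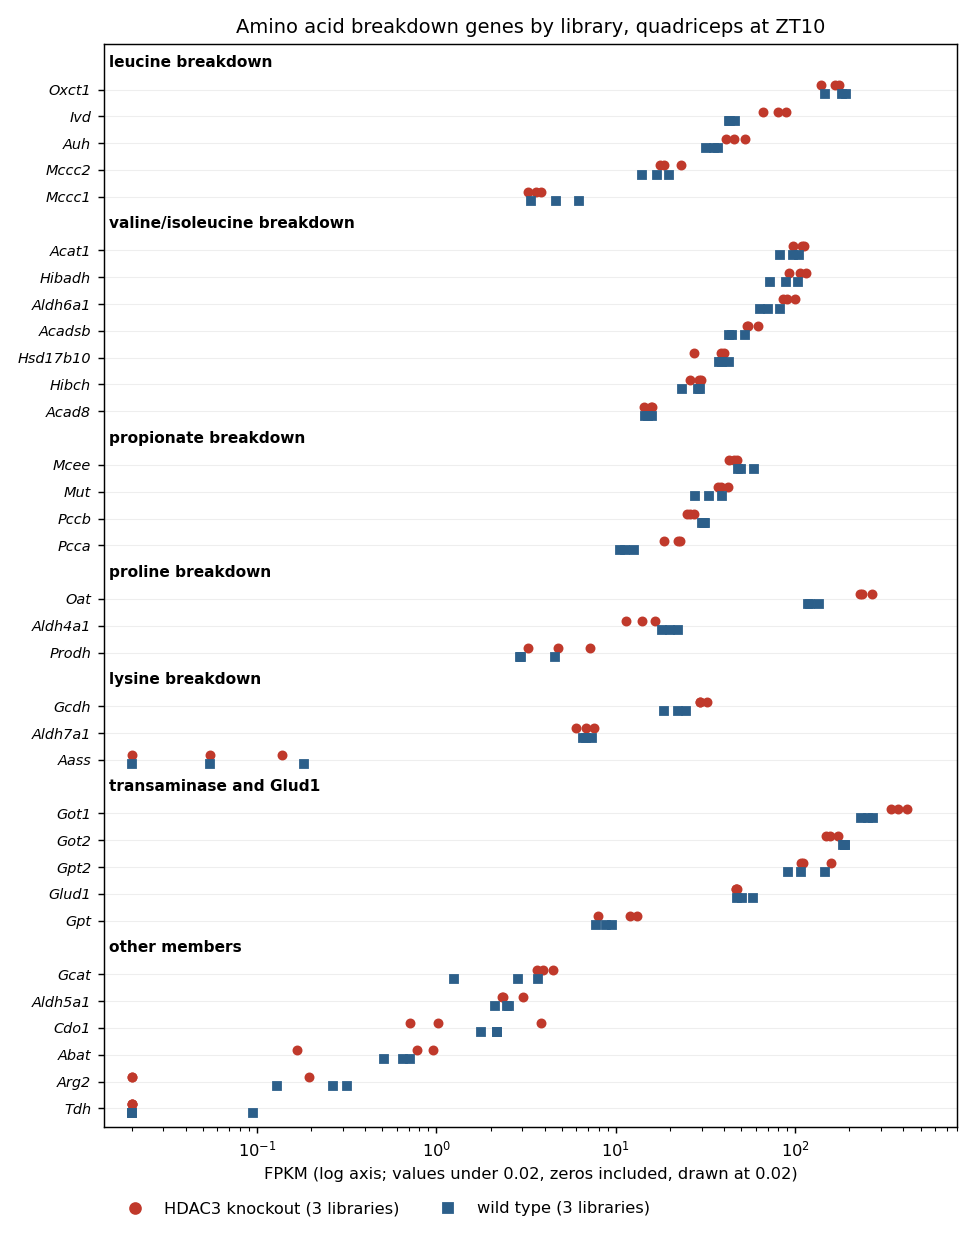
FPKM of each of the 33 genes (log axis) in 3 HDAC3 knockout libraries (circles) and 3 wild-type libraries (squares), grouped by branch and ordered by mean level. Got1, Oat, Got2, Oxct1, Gpt2 and Acat1 sit at the right with means of 100 FPKM or more, while Aass, Abat, Arg2 and Tdh sit under 1 FPKM.

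In the knockout, 4 genes rose, each from a different branch: Oat, Pcca, Ivd and Got1. That is 4 of the 29 genes in the fit (13.8%), beside 2.30% of all genes in the fit and 3.65% called in either direction. No member fell by limma, beside 1.34% of all genes; at an unadjusted p under 0.05, 8 were higher and 3 lower, beside 11.0% and 8.68% of all genes. In the authors' deposited table, 5 of 29 tested members rose at a q under 0.05 (17.2%, beside 5.90% of tested genes) and 1 fell (3.45%, beside 4.94%). By the authors' deposited table the risen ones were Oat, Pcca and Ivd (q of 0.00119 each), Got1 (q of 0.00302) and Gcdh, and the fallen one was Aldh4a1. In bulk muscle RNA, a change in the share of cells that carry a transcript and a change per cell cannot be told apart. When a knockout library was left out, the number of members risen became 2 (replicate 1), 1 (replicate 2) or 1 (replicate 3), and over all genes 30, 84 or 28. When a wild-type library was left out, it became 2 (replicate 1), 0 (replicate 2) or 3 (replicate 3), and over all genes 133, 13 or 105, beside 242 with all libraries.

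Oat encodes ornithine aminotransferase, which turns ornithine into the precursor of glutamate and proline. It was at 229.6, 266 and 235 FPKM in knockout libraries, against 135, 121 and 117 FPKM in wild-type libraries. The groups lay far apart, and the ratio of the means was 1.96 ± 0.124 (SE, n = 3 each). The log2 difference was 0.96 ± 0.10 (limma adjusted p = 0.0108), and it ranged from 0.90 to 1.02 with any single library left out (adjusted p = 0.0776 without wild-type replicate 2). Pcca encodes the biotin-carrying subunit of propionyl-CoA carboxylase. It was at 18.6, 22.6 and 22.2 FPKM in knockout libraries and 10.5, 12.6 and 11.2 FPKM in wild-type libraries, a ratio of 1.85 ± 0.148. All knockout libraries stood above all wild-type ones (log2 difference 0.83 ± 0.12, limma adjusted p = 0.0184; 0.0515, 0.0570 and 0.0804 when knockout replicate 1, 2 or 3 was left out, and 0.0863 when wild-type replicate 2 was).

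Ivd, isovaleryl-CoA dehydrogenase, carries out the dehydrogenation step of leucine breakdown. Its values were 66.2, 88.8 and 80.1 FPKM in knockout libraries and 42.9, 43.2 and 46.3 FPKM in wild-type libraries. The wild-type libraries were close together and the knockout ones more spread, with replicate 1 the lowest. The ratio of means was 1.78 ± 0.156 and the log2 difference 0.81 ± 0.12 (limma adjusted p = 0.0217). That limma adjusted p became 0.0551 and 0.0942 when knockout replicate 2 or 3 was left out, and 0.0560 and 0.1 when wild-type replicate 1 or 2 was. Got1, the cytosolic aspartate aminotransferase of the malate-aspartate shuttle, was the most abundant gene of the set, at 340.4, 371 and 419 FPKM in knockout libraries and 272, 253 and 231 FPKM in wild-type libraries. Groups did not overlap, the ratio of means was 1.50 ± 0.115 and the log2 difference 0.58 ± 0.12 (limma adjusted p = 0.0428). Got1 was closest to the threshold: its p was 0.0656 to 0.163 with any single library left out, while its log2 difference stayed between 0.50 and 0.65.

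The promoters of these 4 genes are shown because their transcripts rose together; each is the 250 bases before the annotated start, 5′ to 3′, from RefSeq on GRCm38.p6. They lie as follows: Oat at chr7:132576399-132576648 on the minus strand, Pcca at chr14:122484115-122484364 on the plus strand, Ivd at chr2:118861744-118861993 on the plus strand and Got1 at chr19:43524606-43524855 on the minus strand.
Oat: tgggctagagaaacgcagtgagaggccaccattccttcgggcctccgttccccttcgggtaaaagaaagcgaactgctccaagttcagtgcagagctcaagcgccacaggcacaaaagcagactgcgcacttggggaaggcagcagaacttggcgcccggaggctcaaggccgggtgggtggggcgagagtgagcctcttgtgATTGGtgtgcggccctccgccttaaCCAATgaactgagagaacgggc
Pcca: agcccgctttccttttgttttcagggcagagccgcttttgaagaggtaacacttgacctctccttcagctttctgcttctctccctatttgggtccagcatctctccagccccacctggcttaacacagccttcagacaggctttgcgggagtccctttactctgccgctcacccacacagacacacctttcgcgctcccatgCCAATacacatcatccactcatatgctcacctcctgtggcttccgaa
Ivd: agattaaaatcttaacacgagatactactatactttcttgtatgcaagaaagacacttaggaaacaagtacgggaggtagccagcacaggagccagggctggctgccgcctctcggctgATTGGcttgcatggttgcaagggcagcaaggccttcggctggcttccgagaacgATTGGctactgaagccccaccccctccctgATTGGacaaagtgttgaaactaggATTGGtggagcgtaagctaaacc
Got1: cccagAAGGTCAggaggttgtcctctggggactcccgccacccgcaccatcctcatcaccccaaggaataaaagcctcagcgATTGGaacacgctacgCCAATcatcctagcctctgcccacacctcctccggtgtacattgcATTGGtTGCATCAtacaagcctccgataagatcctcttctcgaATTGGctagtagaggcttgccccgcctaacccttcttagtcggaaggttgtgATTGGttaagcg
Capitals mark matches on either strand to TAGGTCA (a REV-ERB/ROR site core), AAGGTCA (an ERR site core), CACGTG (E-box), TGATGCA (an ATF4/CHOP element core) and CCAAT, none of which overlapped another. Got1 holds AAGGTCA at bases 245 to 239 before the start and TGATGCA, on the other strand, at bases 101 to 95. Oat, Pcca and Ivd hold none of the first 4 motifs in this window. Among all 32851 promoters of the same length, 2.23% hold TAGGTCA, 4.08% AAGGTCA, 6.02% CACGTG and 2.68% TGATGCA. Each of these 4 motifs occurs in 1 of the 25 members with a listed promoter (4.00%). Members count with 1 promoter each, whereas all listed starts of a gene count among the 32851. The CCAAT box was added to the search after these sequences had been seen: Oat has 2 copies, Pcca 1, Ivd 4 and Got1 5. It occurs in 33.8% of all promoters, in 15 of the 25 members found in the promoter table and in 11 of the 21 of those that did not rise. These matches describe letters only; 7 to 14 CG dinucleotides lay in each of the 4 windows, beside a median of 6.00 over all promoters. For Pcca the table lists 2 starts, of which the more upstream is shown. Which of them is used in muscle was not tested. HDAC3 peaks were not tied to these genes, since the peak lists are on mm9 and no annotation of that build was used here.

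In leucine breakdown, 1 of 5 genes rose and none fell by limma, beside 2.30% and 1.34% of all genes. At an unadjusted p under 0.05, 2 were higher and 0 lower, beside 11.0% and 8.68% of all genes. The authors' deposited table has 1 risen and none fallen, beside 5.90% and 4.94% of tested genes. Auh, the hydratase that acts after methylcrotonyl-CoA carboxylase, had 41.3, 52.3 and 45.2 FPKM in knockout libraries and 35.4, 31.6 and 37.3 FPKM in wild-type libraries. Every knockout library lay above every wild-type library, as in 14.2% of all genes in the fit. The log2 difference of 0.40 ± 0.12 did not pass (limma adjusted p = 0.124). Between Ivd and Auh works methylcrotonyl-CoA carboxylase. Its biotin-carrying subunit gene Mccc1 was at 3.55 ± 0.311 FPKM in knockout libraries and 4.76 ± 1.45 FPKM in wild-type libraries (SD, n = 3 each), and its partner Mccc2 at 19.7 ± 2.87 and 16.9 ± 2.99 FPKM. Neither was called, with log2 differences of -0.31 ± 0.19 and 0.21 ± 0.16. The table also lists an antisense transcript, Mccc1os, and with no statement on strand the Mccc1 values are uncertain. Oxct1, which activates acetoacetate for oxidation, was the most abundant gene of the branch, at 165, 138 and 174 FPKM in knockout libraries and 191, 182 and 147 FPKM in wild-type libraries, with overlapping groups (log2 difference -0.12 ± 0.14).

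In valine and isoleucine breakdown, none of 7 genes passed by limma, and none was called in the authors' deposited table. At an unadjusted p under 0.05, 2 were higher and 0 lower, beside 11.0% and 8.68% of all genes. A positive log2 difference was seen in 6, beside 50.3% of all genes, and the median was 0.17. Acat1, the thiolase that ends isoleucine breakdown and also serves ketone bodies, was highest in level, at 108, 96.8 and 112 FPKM in knockout libraries and 104, 96.5 and 82.0 FPKM in wild-type libraries, which overlap. Acadsb, the isoleucine acyl-CoA dehydrogenase, and Aldh6a1, methylmalonate-semialdehyde dehydrogenase of the valine route, did not overlap between groups. In 14.2% of all genes in the fit every knockout library likewise lay above every wild-type library. Acadsb was at 54.3, 61.8 and 54.1 FPKM in knockout libraries and 52.6, 44.2 and 42.9 FPKM in wild-type libraries (log2 difference 0.28 ± 0.11, limma adjusted p = 0.227). Aldh6a1 was at 85.1, 99.1 and 90.1 FPKM in knockout libraries and 82.3, 70.1 and 63.2 FPKM in wild-type libraries (log2 difference 0.35 ± 0.12, limma adjusted p = 0.176). The gap between groups was narrow in both, with wild-type replicate 1 nearest to the knockout. Acad8, the isobutyryl-CoA dehydrogenase of the valine route and thus the counterpart of Ivd, stood at 15.3 ± 0.898 FPKM in knockout libraries and 15.2 ± 0.711 FPKM in wild-type libraries. Its log2 difference was 0.01 ± 0.10, and its sign turned when libraries were centred. Hibch, Hibadh and Hsd17b10, the remaining hydrolase and dehydrogenases, had log2 differences of 0.06 ± 0.12, 0.24 ± 0.15 and -0.18 ± 0.15.

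In propionyl-CoA disposal, 1 of 4 genes rose and none fell, by limma and in the authors' deposited table. The shares risen were 2.30% of all genes by limma and 5.90% of tested genes in the authors' deposited table. Beside the risen Pcca, the gene of the partner subunit, Pccb, was at 24.9, 25.9 and 27.4 FPKM in knockout libraries and 31.1, 30.3 and 31.3 FPKM in wild-type libraries. Every knockout library lay below every wild-type library, as in 11.9% of all genes in the fit. The log2 difference of -0.24 ± 0.09 was not called (limma adjusted p = 0.193). Mcee, the methylmalonyl-CoA epimerase, had the highest level of this branch, at 45.4, 47.2 and 42.6 FPKM in knockout libraries and 47.8, 58.7 and 50.1 FPKM in wild-type libraries. It too was lower in each knockout library, without a call (log2 difference -0.20 ± 0.11, limma adjusted p = 0.355). Mut, the vitamin B12-dependent mutase, overlapped between groups at 39.4 ± 2.57 FPKM in knockout and 33.1 ± 5.66 FPKM in wild-type libraries (log2 difference 0.26 ± 0.14).

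In the proline and ornithine branch, Oat rose, and Aldh4a1, the dehydrogenase that takes the product of Oat on to glutamate, had a difference of the opposite sign that was not called by limma. Aldh4a1 was at 11.3, 16.6 and 14.0 FPKM in knockout libraries and 19.9, 18.1 and 22.1 FPKM in wild-type libraries. Every knockout library lay below every wild-type library, as in 11.9% of all genes in the fit, and the ratio of means was 0.696 ± 0.0856. Its log2 difference of -0.50 ± 0.15 did not pass by limma (adjusted p = 0.124, and 0.0984 to 0.274 with any single library left out), whereas the authors' deposited table has a q of 0.0160. Prodh, proline dehydrogenase, was low and variable, at 3.25, 7.20 and 4.78 FPKM in knockout libraries and 2.92, 2.96 and 4.59 FPKM in wild-type libraries, with overlap (log2 difference 0.41 ± 0.26, limma adjusted p = 0.442).

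In lysine breakdown, Gcdh, glutaryl-CoA dehydrogenase, was at 29.4, 32.0 and 29.3 FPKM in knockout libraries and 24.6, 22.1 and 18.5 FPKM in wild-type libraries. Every knockout library lay above every wild-type library, as in 14.2% of all genes in the fit, with a ratio of means of 1.39 ± 0.120. The log2 difference of 0.47 ± 0.12 missed the threshold by limma (adjusted p = 0.0894, and 0.0760 to 0.233 with any single library left out), while the authors' deposited table has a q of 0.0334. Aldh7a1, the aldehyde dehydrogenase upstream of it, was at 6.77 ± 0.770 FPKM in knockout libraries and 6.91 ± 0.437 FPKM in wild-type libraries. Aass, which opens the main route of lysine breakdown, was listed at 0.138, 0.0547 and 0 FPKM in knockout libraries and 0.182, 0.0548 and 0 FPKM in wild-type libraries, too low for the main fit.

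Among the aminotransferases, the cytosolic and mitochondrial forms of aspartate aminotransferase had differences of opposite sign, of which that of Got1 was called. Got2, the mitochondrial form, was at 147, 156 and 173 FPKM in knockout libraries and 189, 189 and 183 FPKM in wild-type libraries. Each knockout library lay below each wild-type library, as in 11.9% of all genes in the fit, without a call (log2 difference -0.24 ± 0.10, limma adjusted p = 0.225). A Got2 pseudogene is annotated, and how the counting shared reads with it is not given. Alanine aminotransferase varied more within groups. Gpt2, the mitochondrial form, was at 111, 159 and 107 FPKM in knockout libraries and 147, 108 and 90.7 FPKM in wild-type libraries. Gpt, the cytosolic form, was at 7.99, 13.2 and 12.0 FPKM in knockout libraries and 8.79, 7.71 and 9.52 FPKM in wild-type libraries. Both overlapped between groups, with log2 differences of 0.13 ± 0.21 for Gpt2 and 0.29 ± 0.18 for Gpt. Glud1, glutamate dehydrogenase, was even across knockout libraries at 47.0 ± 0.343 FPKM, beside 51.6 ± 5.50 FPKM in wild-type libraries (log2 difference -0.13 ± 0.10).

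**Figure D2:**
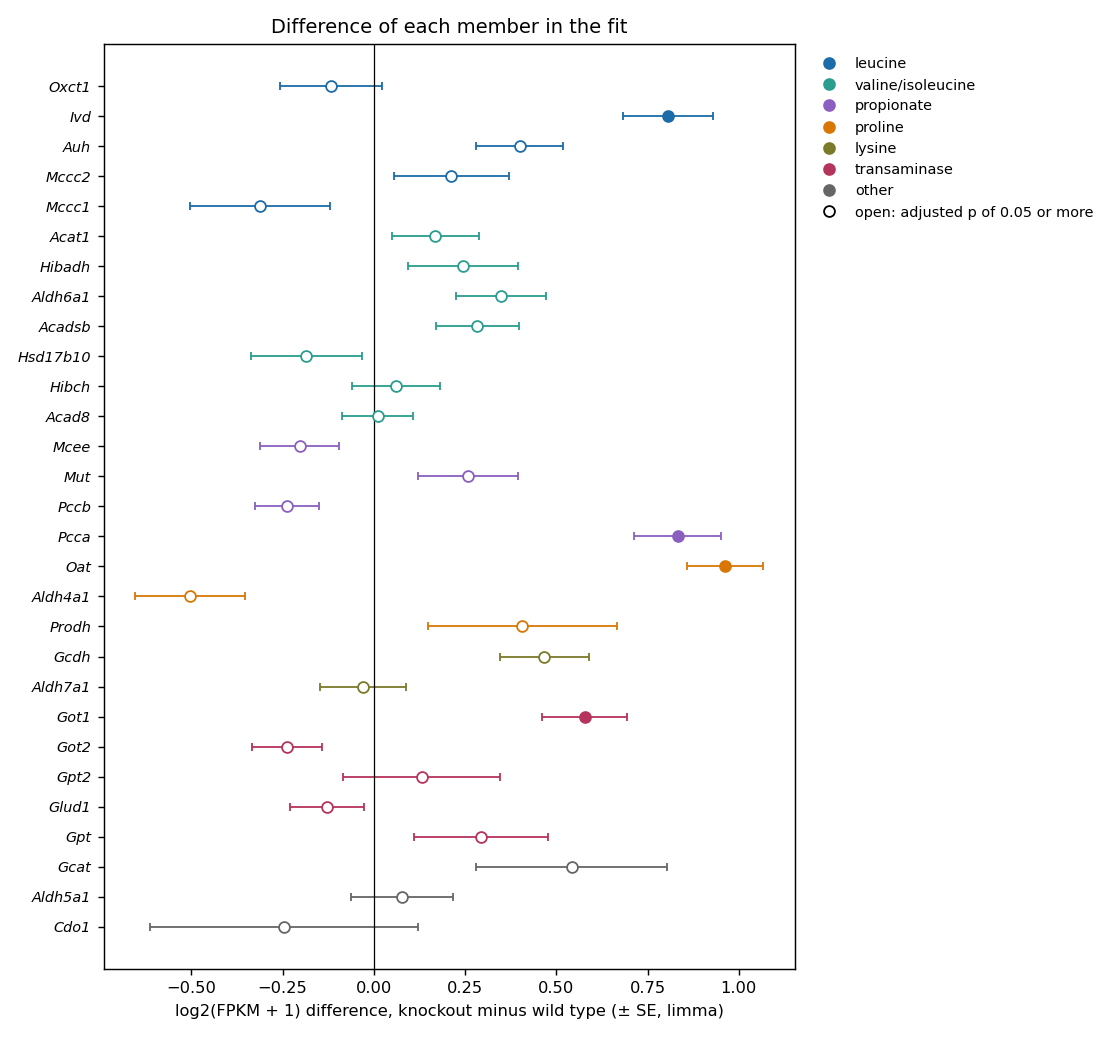
Log2(FPKM + 1) difference, knockout minus wild type, of the 29 genes in the fit (points, coloured by branch) with the SE of limma (bars, n = 3 libraries per group). Filled points mark the 4 genes with an adjusted p under 0.05, from Got1 at 0.58 to Oat at 0.96. Open points run from Aldh4a1 at -0.50 to Gcat at 0.54.

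All 6 genes of other amino acids averaged under 10 FPKM. Gcat, of threonine and glycine breakdown, was at 4.46, 3.63 and 3.93 FPKM in knockout libraries and 1.25, 2.83 and 3.68 FPKM in wild-type libraries, overlapping by wild-type replicate 3 (log2 difference 0.54 ± 0.26, limma adjusted p = 0.309). Cdo1, the cysteine dioxygenase, had 1 high knockout library, at 3.84 FPKM beside 1.02 and 0.716, against 2.17, 2.18 and 1.77 FPKM in wild-type libraries, and Aldh5a1, of GABA breakdown, was at 2.57 ± 0.407 and 2.37 ± 0.230 FPKM. Abat, the GABA aminotransferase, was at 0.961, 0.777 and 0.166 FPKM in knockout libraries and 0.710, 0.648 and 0.512 FPKM in wild-type libraries. Arg2, the mitochondrial arginase, which makes the ornithine that Oat uses, was listed at 0, 0 and 0.196 FPKM in knockout libraries and 0.264, 0.318 and 0.129 FPKM in wild-type libraries. Tdh, threonine dehydrogenase, was listed at 0 in all but wild-type replicate 1, at 0.0953 FPKM. These 3 and Aass are the 4 members left out of the fit for their low level.

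Several of these pairs share a complex, a reaction or a metabolite, so their FPKM ratio was taken within each library, which removes the scaling of libraries. Pcca/Pccb was 0.747, 0.873 and 0.811 in knockout libraries and 0.338, 0.414 and 0.358 in wild-type libraries, a 2.19-fold higher mean. Got1/Got2 was 2.31, 2.37 and 2.43 in knockout libraries and 1.43, 1.34 and 1.26 in wild-type libraries, 1.76-fold higher, with little spread in either group. Oat/Aldh4a1 was 20.3, 16.0 and 16.8 in knockout libraries and 6.78, 6.67 and 5.31 in wild-type libraries, 2.83-fold higher. None of these 3 ratios overlapped between groups. Mccc1/Mccc2 averaged 0.182 ± 0.0255 in knockout and 0.282 ± 0.0731 in wild-type libraries, and Gpt/Gpt2 0.0890 ± 0.0206 and 0.0789 ± 0.0234, both with overlap. In the first 3 pairs the upper gene was higher and the lower gene lower in every knockout library, so the ratios had to separate and no test of them is given. By 2-sided exact permutation tests of the log2 ratios, p was 0.200 for Mccc1/Mccc2 and 0.500 for Gpt/Gpt2 (0.250 and 0.500 adjusted over 5 pairs), where 3 against 3 libraries allow no p below 0.1. The pairs Pcca/Pccb, Mccc1/Mccc2 and Oat/Aldh4a1 were chosen after their values were seen.

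**Figure D3:**
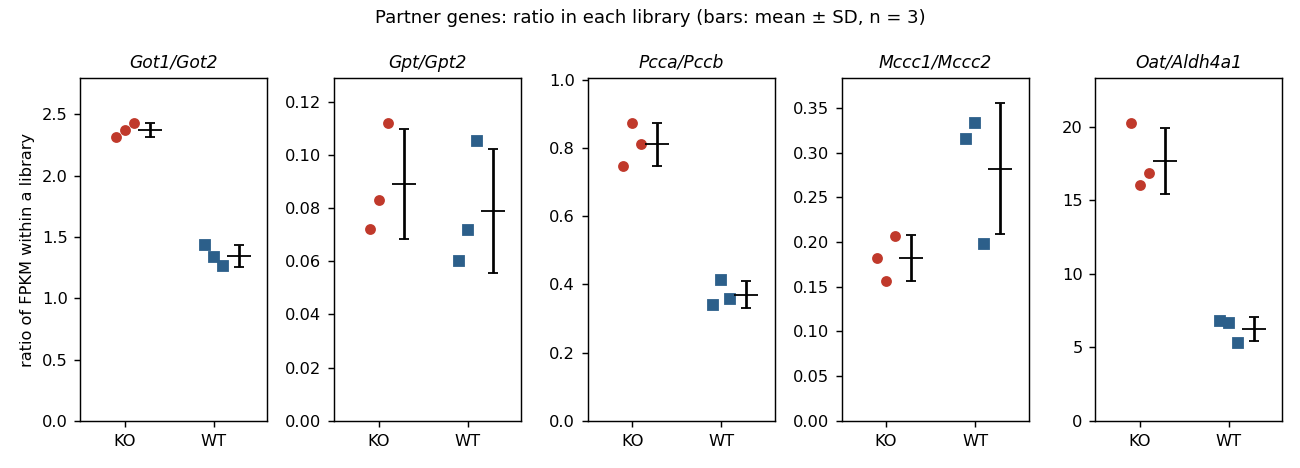
Ratio of FPKM of 2 partner genes within each library, knockout (circles) and wild type (squares), with the mean ± SD of 3 libraries beside the points; each axis starts at 0. Got1/Got2, Pcca/Pccb and Oat/Aldh4a1 separate the groups, and Gpt/Gpt2 and Mccc1/Mccc2 do not.

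As a set, the 29 genes in the fit had a median log2 difference of 0.17, beside 0.00 over all genes in the fit, and 19 of 29 were higher (65.5%, beside 50.3% of all genes). Every knockout library lay above every wild-type library in 8 members (27.6%, beside 14.2% of all genes) and below in 4 (13.8%, beside 11.9%). The shares higher and with every knockout library above were 82.6% and 30.4% among 23 neighbouring pathway genes, and 92.9% and 28.6% among 14 other mitochondrial genes. Summed FPKM over the 33 genes was 1800.3, 1968 and 1942 in knockout libraries and 1724, 1579 and 1446 in wild-type libraries. Without the 4 risen genes the sums overlapped, at 1146, 1219.8 and 1186 in knockout libraries and 1264, 1149.7 and 1041 in wild-type libraries. The members in the fit other than these 4 had a median log2 difference of 0.08. Among them, every knockout library lay above in 16.0% and below in 16.0%. The 4 genes taken out were picked by their rise in these same libraries, and Got1 and Oat were the most abundant members. Their removal was bound to bring the sums closer, lower the median and the share above, and raise the share below. No called genes were taken out of the shares of all genes. These values therefore cannot show whether the difference of the set rests on these 4 genes.

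Libraries of the same group differed across the set. In the knockout, replicate 2 was the highest in 17 of 29 members and replicate 1 the lowest in 16, while over all genes those shares were 34.5% and 36.3%. In wild type, replicate 1 was the highest in 16 of 29 and replicate 3 the lowest in 17, beside 38.4% and 39.0% of all genes. The median log2 deviation of members from their wild-type mean was 0.07, 0.36 and 0.13 in knockout replicates 1, 2 and 3 and 0.09, -0.02 and -0.08 in wild-type replicates 1, 2 and 3, while over all genes it lay between -0.01 and 0.01 in each library. Of the marker lists for other cell types, satellite cell genes (Pax7 and Myf5) did not overlap, summing to between 0.378 and 0.574 FPKM in knockout libraries and between 1.16 and 1.43 FPKM in wild-type libraries. Adipocyte genes (5 listed) summed to between 325 and 434 FPKM in knockout libraries and between 323 and 483 FPKM in wild-type libraries. Most of this was Fabp4, at 315 to 407 and 303 to 468 FPKM. Adipoq, Plin1 and Cfd also overlapped between groups. In the knockout, Adipoq was at 6.62, 2.44 and 1.62 FPKM and Cfd at 19.7, 7.26 and 3.32 FPKM, both highest in replicate 1. Lep, under 1 FPKM, was lower in each knockout library than in each wild-type library. The neutrophil genes S100a8 and S100a9 summed to between 3.39 and 7.41 FPKM in knockout libraries and between 4.89 and 461 FPKM in wild-type libraries, the highest being wild-type replicate 2. With that library left out, no member was called, and over all genes 13 rose and 6 fell, beside 242 and 141 with all libraries. The log2 differences were then 0.94 for Oat, 0.90 for Pcca, 0.79 for Ivd and 0.58 for Got1. Macrophage, endothelial, smooth muscle, fibroblast, Schwann and erythroid sums overlapped as well, and no marker in the fit was called by limma. Pax7, Myf5, Plin1, Lep, Alb, Apoa1 and Cps1 averaged under 1 FPKM and were not in the main fit, so no limma test of the satellite cell difference is given. The part of these cells in the members' values was not tested.

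Genes acting directly before, between or beside these steps, 27 in all with 23 in the fit, had 2 risen and none fallen by limma (8.70%, beside 2.30% of all genes). At an unadjusted p under 0.05, 7 were higher and 0 lower, beside 11.0% and 8.68% of all genes. In the authors' deposited table, 6 of 23 rose (26.1%, beside 5.90% of tested genes) and none fell. Dbt, the transacylase core of the branched-chain ketoacid dehydrogenase, was at 19.1, 24.1 and 17.3 FPKM in knockout libraries and 11.8, 9.87 and 9.15 FPKM in wild-type libraries (log2 difference 0.90 ± 0.15, limma adjusted p = 0.0263). Echs1, the hydratase shared by valine, isoleucine and fatty acid breakdown, was at 136, 185 and 133 FPKM in knockout libraries and 76.5, 71.2 and 76.6 FPKM in wild-type libraries (log2 difference 0.99 ± 0.14, limma adjusted p = 0.0184). In both, each knockout library stood above each wild-type library, as in 14.2% of all genes in the fit. The count became 0 when knockout replicate 1 or 3 or wild-type replicate 2 was left out, where 30, 28 and 13 of all genes rose. It became 1 (Echs1) when knockout replicate 2 or wild-type replicate 3 was left out, where 84 and 105 of all genes rose. When wild-type replicate 1 was left out it became 3, beside 133 of all genes. With all libraries, 242 of all genes rose. The uncalled genes named next were chosen after their values were seen. Glul, glutamine synthetase, had the largest log2 difference of the list, at 225, 458 and 345 FPKM in knockout libraries and 181, 96.4 and 91.7 FPKM in wild-type libraries. The groups did not overlap but were widely spread (log2 difference 1.48 ± 0.33, limma adjusted p = 0.0574; q of 0.00119 in the authors' deposited table). Aldh18a1, which makes pyrroline-5-carboxylate from glutamate, was at 4.07, 2.48 and 3.91 FPKM in knockout libraries and 0.960, 1.79 and 1.93 FPKM in wild-type libraries, again without overlap (log2 difference 0.81 ± 0.22, limma adjusted p = 0.0968; q of 0.00119 in the authors' deposited table). The other ketoacid dehydrogenase subunit genes, Bckdha, Bckdhb and Dld, had log2 differences of 0.37 ± 0.28, 0.33 ± 0.14 and -0.08 ± 0.15, and Bcat2, the mitochondrial branched-chain aminotransferase, 0.18 ± 0.23. Slc25a12, the mitochondrial aspartate-glutamate carrier of muscle, was at 237 ± 20.7 FPKM in knockout and 195 ± 3.89 FPKM in wild-type libraries and was not called (log2 difference 0.27 ± 0.10, limma adjusted p = 0.188). The median of the 23 was 0.27.

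Other mitochondrial genes (14, such as citrate synthase, porins and respiratory chain subunits) had none risen or fallen by limma or in the authors' deposited table, with 4 higher and 0 lower at an unadjusted p under 0.05, beside 11.0% and 8.68% of all genes. Their median log2 difference was 0.14 and their range -0.02 to 0.42. Cs, citrate synthase, lay at the top of it, at 378 ± 31.4 FPKM in knockout and 283 ± 34.7 FPKM in wild-type libraries (limma adjusted p = 0.120).

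**Figure D4:**
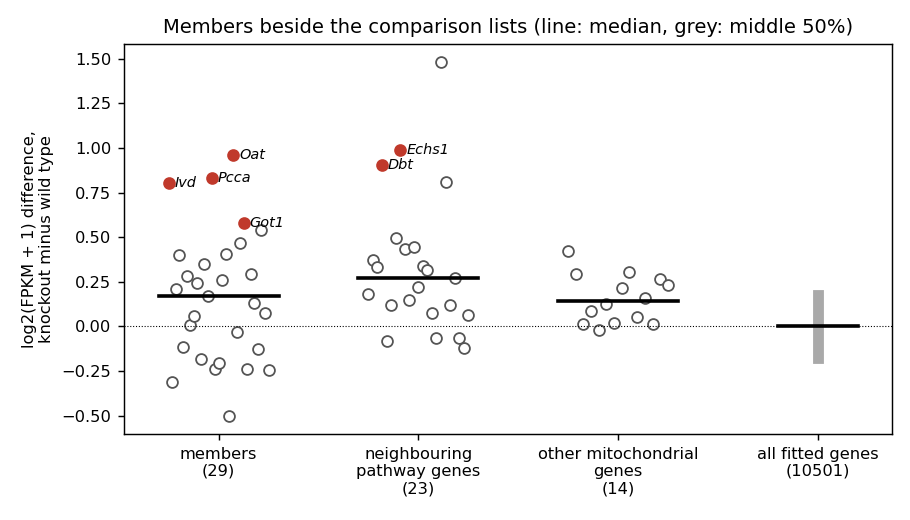
Log2(FPKM + 1) difference, knockout minus wild type, of the 29 members, 23 neighbouring pathway genes and 14 other mitochondrial genes in the fit, 1 point per gene, with the median of each list as a line; the grey bar spans the middle of all 10501 genes, from the lower to the upper quartile. Red points are genes with a limma adjusted p under 0.05, namely Ivd, Pcca, Oat, Got1, Dbt and Echs1, and the list medians are 0.17, 0.27 and 0.14, beside 0.00 over all genes.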

How the data were processed

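Expression was read from the authors' deposited table of FPKM per gene and library, for which the submitters' processing notes name TopHat2, Cuffdiff and the mm9 build. Their versions, the annotation, the strand setting and the library scaling are not stated there. The same table holds the authors' p-values and q-values, which were copied and not recomputed. Of the 14 samples, the 6 RNA-seq libraries were used and 8 ChIP-seq and GRO-seq samples were not used here. limma 3.58.1 (R 4.3.3) with a mean-variance trend was fitted to log2(FPKM + 1) of genes with a mean of at least 1 FPKM. The test was two-sided with Benjamini-Hochberg adjustment. The fit was also run on simulated data with independent noise for each gene. Its recovery of changes there is not given, so that run says nothing about the genes not called here. Values with ± are SD of 3 libraries for levels and SE for differences and ratios. Promoters came from RefSeq (25 of 33 members matched by symbol). Members and lists were chosen with earlier results of these data known, so no list has a test. Values by library are given for called members, the most abundant gene of each branch, isozyme pairs and members near 0, as a rule; those for Auh, Acadsb, Aldh6a1, Pccb, Prodh and Cdo1, and those for uncalled neighbouring genes, were added after their values were seen. Alternatives were another pseudocount, other filters, centring, no trend, a replicate block, other thresholds and each library left out.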

Additional observations from a re-analysis of the deposited data

How the results depend on the processing

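With all libraries kept, 4 members had risen and none had fallen. The number risen was 0 with a replicate block, it was 5, with 1 fallen, in the authors' deposited table, and it ranged from 0 to 3 with any 1 library left out. Neighbouring pathway genes had 2 risen, against 0 with a replicate block, 4 at an adjusted p under 0.1, 6 in the authors' deposited table and 0 to 3 with 1 library left out. The labels used here do not say whether libraries of the same number belong together. Deviations of same-numbered libraries correlated weakly (0.04, 0.05 and 0.05). Each library still correlated best with its own number, beside -0.09 to 0.03 for the other pairs. That is a hint from the data only, and it cannot show whether the numbers mark pairs. The block left 23 risen and 13 fallen of all genes, beside 242 and 141. Under it the limma adjusted p was 0.0583 for Oat, 0.0628 for Pcca, 0.0680 for Ivd and 0.125 for Got1. Got1 also missed the threshold with no filter (0.0710) and without the trend (0.0633). Over all genes, 152 rose with no filter, and 13 to 133 rose with 1 library left out. At an adjusted p under 0.1, 478 of all genes rose and 298 fell, and the authors' deposited table has 543 and 455. The sign of Acad8 turned with centred libraries (0.00) and in single left-out libraries (-0.02 to 0.06), and with 1 library left out so did that of Hibch (-0.04 to 0.12), Aldh7a1 (-0.10 to 0.05), Gpt2 (-0.05 to 0.32), Aldh5a1 (-0.01 to 0.13) and Cdo1 (-0.71 to 0.04), and the log2 fold of Gpt/Gpt2 (-0.03 to 0.44, the lowest without knockout replicate 3); none of these was called. Hdac3 stayed called throughout. The window for HDAC3 peaks was not run, as no mm9 annotation was at hand. Depth per gene is unknown. Members under 1 FPKM were left out of the main fit, and none of them was called with no filter.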
